A study of Mus musculus with 18 samples.

Results

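The urea cycle genes described here are the 8 rows of the deposited expression table whose symbol was Cps1, Otc, Ass1, Asl, Arg1, Nags, Slc25a15 or Slc25a13, out of 54838 genes in all. The study asked how loss of the miR-181ab1 microRNA cluster affects liver cancer in mice, and mRNA was sequenced from C57BL/6 livers and tumours. The 18 libraries form 6 groups of 3, all from mice of 36 weeks. WT tumours and GKO tumours, and the WT and GKO non-tumour livers (the tissue outside the tumours), came from mice given diethylnitrosamine (DEN), a carcinogen that liver cells activate, once at 25 mg/kg on postnatal day 12, while the WT and GKO normal livers came from mice that received none. WT mice carry miR-181ab1, and GKO mice lack it in every tissue, so a difference between the genotypes need not arise in hepatocytes. The labels do not say which libraries share a mouse, so the p-values measure the spread between these libraries.

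The urea cycle turns ammonia, a toxic product of amino acid breakdown, into urea, and the complete cycle runs mainly in hepatocytes. Nags makes N-acetylglutamate, the obligatory activator of Cps1, and Cps1 and Otc then carry out the first steps inside mitochondria. Ass1, Asl and Arg1 complete the cycle in the cytosol, and the carriers Slc25a15 (ornithine and citrulline) and Slc25a13 (citrin, which exports aspartate in exchange for glutamate) link the compartments. In healthy liver these genes are strongest in hepatocytes around the portal vein, whereas hepatocytes around the central vein capture left-over ammonia with Glul, glutamine synthetase.

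The microRNAs removed in GKO mice and the promoters of the 2 members that passed the test in tumours are shown first. These promoters were chosen because those members passed, and no comparison below uses the sequences. The mature miR-181a-5p (chr1:137966468-137966490, plus strand) and miR-181b-5p (chr1:137966650-137966673, plus strand) of the cluster are from RefSeq on GRCm38.p6, with the seed, bases 2 to 8, in capitals:
miR-181a-5p: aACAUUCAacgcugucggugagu
miR-181b-5p: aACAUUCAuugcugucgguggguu
Both share the seed ACAUUCA. Its reverse complement TGAATGT was in the 3′ UTR of none of the 8 members, read from 1 GENCODE M21 transcript each, against 2053 of 11721 tested genes (17.5%). That says only that these letters are absent from those transcripts. RefSeq promoters, here the 250 bases before the start, were found for 5 of the 8 members, and not for Cps1, Asl and Arg1. Those of Otc (chrX:10252055-10252304, plus strand) and Slc25a13 (chr6:6217174-6217423, minus strand) read 5′ to 3′, with motif matches in capitals:
Otc: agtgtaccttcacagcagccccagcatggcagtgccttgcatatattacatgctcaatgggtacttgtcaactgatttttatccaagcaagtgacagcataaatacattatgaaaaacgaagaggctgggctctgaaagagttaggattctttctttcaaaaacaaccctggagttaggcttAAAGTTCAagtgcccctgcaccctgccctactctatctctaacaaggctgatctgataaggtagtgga
Slc25a13: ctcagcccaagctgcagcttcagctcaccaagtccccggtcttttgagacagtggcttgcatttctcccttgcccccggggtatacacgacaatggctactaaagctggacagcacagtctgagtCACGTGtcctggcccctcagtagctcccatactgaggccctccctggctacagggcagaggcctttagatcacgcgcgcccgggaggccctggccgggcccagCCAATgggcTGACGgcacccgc
The Otc capitals are a match to AAAGTNCA, a short motif of the hepatocyte factor HNF4, at positions -68 to -61, which 3.53% of 32851 RefSeq promoters hold on either strand. The Slc25a13 capitals are an E-box (CACGTG, in 6.02%), a CCAAT box (CCAAT, in 33.8%) and the core of a cyclic AMP response element (TGACG, in 17.8%), none of which overlaps another. A match is a description and not a shown binding site. The GC content was 43.6% for Otc and 62.8% for Slc25a13, against a median of 52.4% over all RefSeq promoters.

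Levels are given as TPM, a unit of transcript abundance scaled to gene length and to the library total, so members can be compared with each other. Gene positions are those of GENCODE M21 on GRCm38, the sequence also called mm10. Each library held 11925059 to 20751353 reads on genes (median 16973797), and every member was well above the detection floor: of 144 values none was 0 and the lowest was 25.7 TPM. Summed hepatocyte markers (Alb, Apoa1, Apob, Ttr, Serpina1a, Tat, Cyp2e1, Hnf4a, Trf and Fgb) reached between 73596.2 and 103407.4 TPM in the 12 livers without tumour and between 182424.3 and 217989.3 TPM in the 6 tumours, and none of the 10 was at 0 in any library. Alb and Apoa1 carried most of that difference (Alb at 22860.0 to 44070.0 TPM in livers and 83550.0 to 139800.0 TPM in tumours), Ttr overlapped, and Cyp2e1, also a pericentral gene, went the other way (3056 to 9357 TPM in livers and 18.8 to 1446 TPM in tumours). TPM values share 1 total, so a larger share for such transcripts leaves less for all others. The deleted hairpins could not check the genotype labels, because Mir181a-1 was at 0 in 17 of 18 libraries, all 9 WT libraries among them, and Mir181b-1 in 18 of 18. The 1 value above 0, 1.4 TPM or 1 recovered read, was in the library labelled GKO tumour 3, a genotype that lacks the locus, so comparisons of GKO tumours are also given without it. In bulk tissue, fewer cells of a type and less RNA per cell cannot be told apart. Several libraries stood apart within their groups: WT tumours 1 and 2 correlated with each other at r = 0.982 across genes but with WT tumour 3 at 0.919 and 0.921, and WT non-tumour 2 correlated with its group at 0.929 and 0.933.

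The summed level of the members overlapped between tumours and livers. The 8 genes together reached 1624.8 to 5784.6 TPM in the 6 tumours (median 4138.1) and 2186.2 to 6045.4 TPM in the 12 other libraries (median 3682.1). Ass1 was the most abundant member, with a median of 50.9% of the summed TPM, followed by Arg1 with 26.4%, although their shares overlapped across libraries (35.6% to 66.9% and 11.4% to 41.9%). Asl took 6.64%, Cps1 6.45% and Otc 4.74%, and the shares of these 3 overlapped across libraries. Slc25a13 (1.92%), Slc25a15 (1.45%) and Nags (1.25%) were the least abundant, with overlapping ranges among themselves.

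Nags (chr11:102145513-102149477, plus strand), which makes the activator of Cps1, was measured at 33.3, 37.6 and 43.3 TPM in WT normal livers and at 37.2, 42.7 and 35.3 TPM in GKO normal livers. It reached 48.2, 66.9 and 52.4 TPM in WT non-tumours and 55.6, 38.5 and 38.2 TPM in GKO non-tumours. WT tumours held 73.7, 62.3 and 25.7 TPM and GKO tumours 48.1, 42.3 and 62.2 TPM. The highest and the lowest of the 18 values both came from WT tumours. All 3 WT non-tumours lay above the 3 WT normal livers, and the other groups that share a genotype or a tissue overlapped. An antisense gene, Gm11586, overlaps Nags and never exceeded 2.29% of its level.

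Cps1 (chr1:67123026-67231259, plus strand), the mitochondrial enzyme that fixes ammonia into carbamoyl phosphate, was at 110.5, 129.0 and 313.9 TPM in WT normal livers and at 110.9, 157.9 and 272.4 TPM in GKO normal livers. WT non-tumours held 202.7, 504.3 and 228.3 TPM and GKO non-tumours 407.4, 174.0 and 262.4 TPM. WT tumours were at 323.7, 228.7 and 152.8 TPM and GKO tumours at 440.0, 148.7 and 395.7 TPM. Every group spanned a wide range, and no group of Cps1 values was separate from any other with the same genotype or tissue.

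Otc (chrX:10252305-10321024, plus strand), which joins carbamoyl phosphate to ornithine, was lower in each WT tumour than in each WT liver. Its normal livers held 167.6, 179.0 and 140.7 TPM (WT) and 174.4, 156.0 and 184.3 TPM (GKO), and its non-tumours 236.5, 306.8 and 115.7 TPM (WT) and 148.9, 182.3 and 195.5 TPM (GKO). WT tumours held 111.4, 66.8 and 86.1 TPM. GKO tumours were split, with 168.0 and 161.1 TPM in tumours 1 and 3, within the range of the livers, and 66.0 TPM in tumour 2, the lowest of all 18 libraries.

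Ass1 (chr2:31470207-31520672, plus strand), which adds aspartate to citrulline, had the widest spread of the members within groups. Normal livers held 1078.9, 988.5 and 3319.6 TPM (WT) and 927.3, 1230.8 and 2209.2 TPM (GKO), and non-tumours 2149.4, 3693.7 and 1666.1 TPM (WT) and 2443.3, 1847.8 and 1593.5 TPM (GKO). WT tumours held 3249.3, 2569.4 and 580.6 TPM and GKO tumours 2096.6, 691.9 and 2654.1 TPM. Each genotype thus had 2 tumours within the liver range and 1 tumour below every liver library. Gm5424, a processed pseudogene of Ass1, shares sequence with it: of 1210 windows of 31 bases in its transcript, 1025 (84.7%) also occur in Ass1 transcripts. Its level was 2.81% to 6.8% of that of Ass1. How the authors' counting treated reads that fit both genes is not given. That share therefore sets no limit on how far the level of Ass1 is off.

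Asl (chr5:130011258-130029247, minus strand), which splits argininosuccinate into arginine and fumarate, covered the widest range of all members, 8.52-fold from lowest to highest. Normal livers held 175.8, 156.2 and 685.2 TPM (WT) and 177.6, 211.0 and 321.8 TPM (GKO). The non-tumours separated by genotype, with 205.8, 156.1 and 220.8 TPM in WT and 436.8, 368.4 and 354.1 TPM in GKO. WT tumours held 236.4, 189.1 and 80.4 TPM and GKO tumours 156.0, 103.5 and 251.8 TPM, so every GKO tumour lay below every GKO non-tumour.

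Arg1 (chr10:24915221-24927484, minus strand), which releases urea from arginine, was at 569.5, 670.7 and 1401.1 TPM in WT normal livers and at 656.4, 560.6 and 1064.4 TPM in GKO normal livers. It was at 1042.2, 631.8 and 1029.5 TPM in WT non-tumours and at 870.0, 869.8 and 1224.5 TPM in GKO non-tumours. WT tumours held 1686.3, 1168.1 and 619.6 TPM and GKO tumours 881.9, 813.7 and 1568.3 TPM. The groups overlapped throughout, and the whole range of Arg1 was 3.01-fold.

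Slc25a15 (chr8:22375551-22398597, minus strand), the ornithine carrier, had a similarly narrow range of 2.85-fold. Normal livers held 53.6, 49.7 and 85.9 TPM (WT) and 40.9, 46.3 and 59.5 TPM (GKO), and non-tumours 51.9, 76.2 and 64.0 TPM (WT) and 65.4, 49.1 and 55.0 TPM (GKO). WT tumours were at 77.8, 65.5 and 40.4 TPM. GKO tumours 1 and 2, at 30.6 and 30.1 TPM, were the 2 lowest of all libraries, while GKO tumour 3 reached 73.0 TPM.

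Slc25a13 (chr6:6041218-6217173, minus strand) was the member whose levels set WT tumours apart. WT tumours held 26.1, 26.1 and 39.2 TPM, the 3 lowest values of all 18 libraries, and GKO tumours 78.9, 45.6 and 122.7 TPM. Normal livers held 46.4, 51.9 and 55.6 TPM (WT) and 61.4, 52.4 and 62.8 TPM (GKO), and non-tumours 51.3, 88.4 and 86.6 TPM (WT) and 82.0, 45.7 and 65.4 TPM (GKO). GKO tumour 3 was the highest of all libraries, and the GKO tumours overlapped both kinds of GKO liver.

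**Figure D1:**
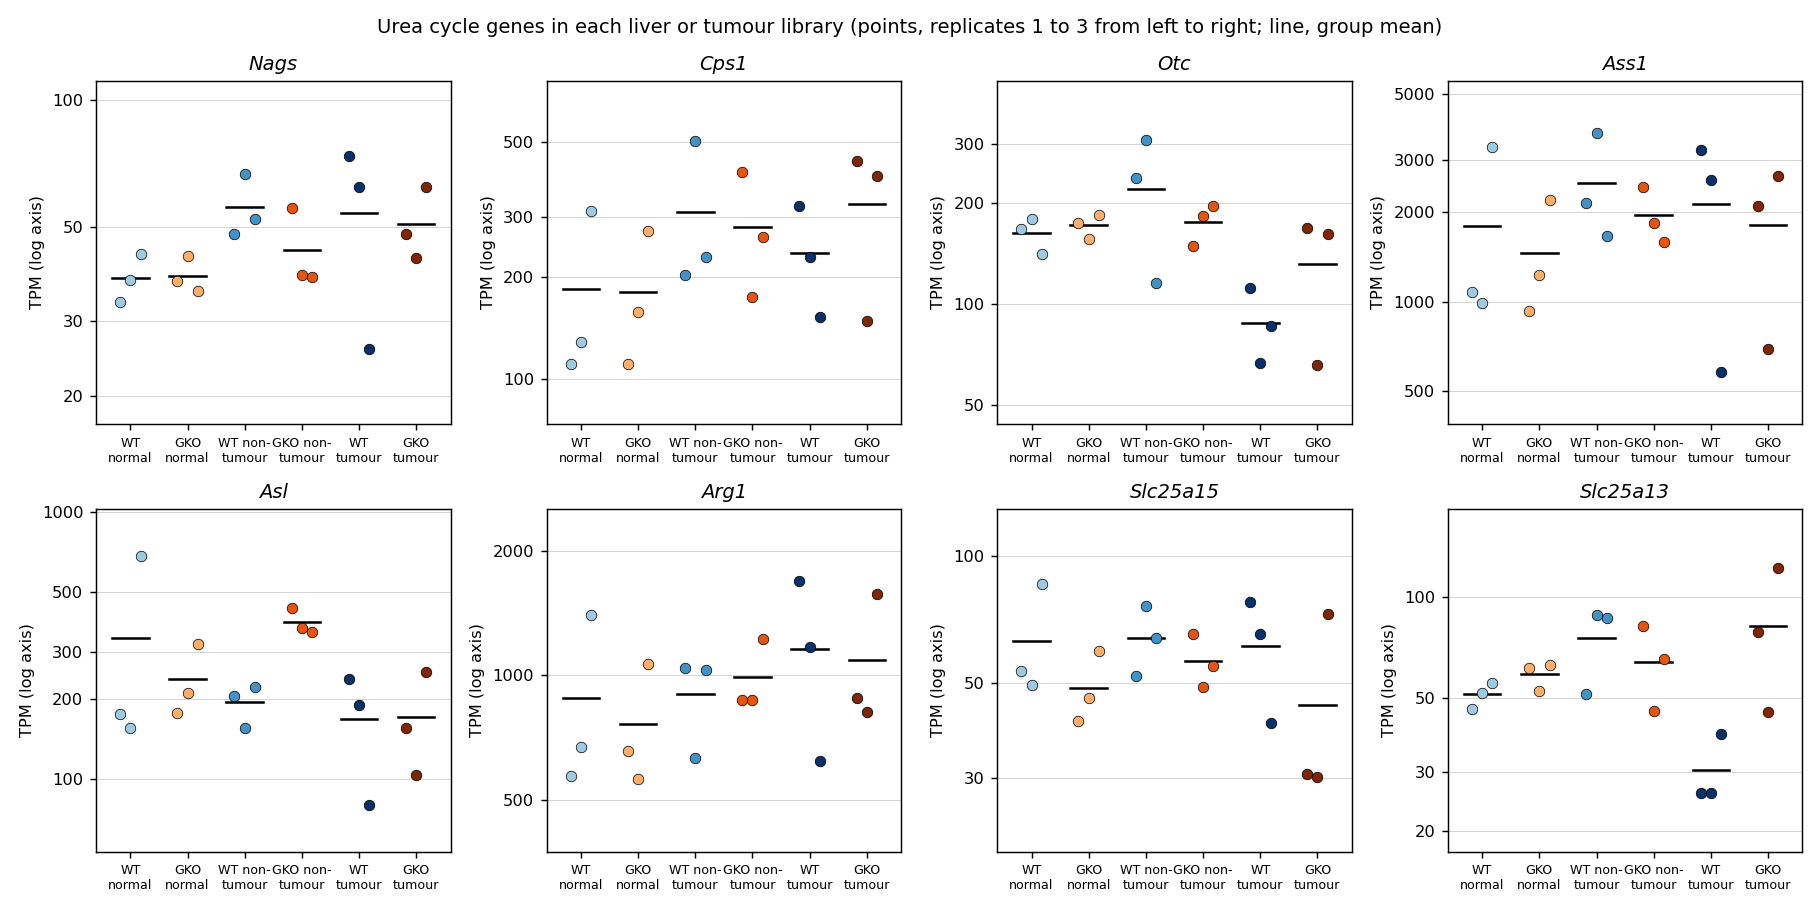
TPM of the 8 urea cycle genes on log axes, with 1 point per library in 6 groups and a line at each group mean. The 3 WT tumours hold the lowest Slc25a13 values (26.1 to 39.2 TPM), the 3 GKO non-tumours exceed the 3 WT non-tumours for Asl, and Ass1 spans 580.6 to 3249.3 TPM within WT tumours.

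WT tumours against WT normal livers asked which members differ between a tumour and untreated tissue. Otc and Slc25a13 fell, and the 6 other members did not pass the test: 2 of 8 members were called, both lower, at an adjusted p under 0.05 by limma with Benjamini-Hochberg adjustment over all genes tested. Of all genes tested in that comparison 27.5% were called, and 6.33% were called lower. Groups were apart for these 2 of 8 members, beside 47% of all genes. The mean of Otc was 88.1 ± 22.3 TPM (SD, n = 3) in tumours against 162.4 ± 19.65 in normal livers, a 1.86-fold lower level (log2 fold change -0.90, SE 0.24, limma adjusted p = 0.0325). For Slc25a13 the means were 30.5 ± 7.56 and 51.3 ± 4.66 TPM, a 1.69-fold lower level (log2 fold change -0.75, SE 0.21, limma adjusted p = 0.0413). Asl, with a log2 fold change of -0.79, had a far larger error (SE 0.65) and overlapping groups.

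The same comparison depended on single libraries. Without WT normal 1, 2 or 3 or WT tumour 2 in turn neither gene was called (limma adjusted p for Otc 0.112, 0.103, 0.0561 and 0.0976, and for Slc25a13 0.098, 0.11, 0.112 and 0.128), and without WT tumour 1 only Otc was. Without WT tumour 3 both stayed called and Nags was called as well, 3 of 8 members. Neither was called with a block for the replicate number (limma adjusted p = 0.0728 for Otc and 0.0697 for Slc25a13), with no filter on low values, with all 18 samples in one fit or with WT tumours 1 and 2 averaged. The median of all genes was itself 0.29 higher in WT tumours on the log2 scale, and relative to it Otc was at -1.19 and Slc25a13 at -1.04. With median centring of the libraries both stayed called, while the calls over all genes went from 2887 higher and 863 lower to 1188 higher and 1705 lower. The members' median log2 fold change was 0.05.

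In GKO tumours against GKO normal livers no member passed, also without GKO tumour 3, while 20.1% of all genes tested did. At an unadjusted p under 0.05 the count was also 0 of 8, against 37% of all genes. Otc had a log2 fold change of -0.49 (SE 0.36) and Slc25a13 of 0.37 (SE 0.35), and the groups overlapped for every member, whereas 43.3% of all genes had groups apart. With median centring the calls over all genes went from 2255 higher and 547 lower to 851 higher and 1053 lower, and no member was called. The largest difference was that of Cps1, 0.81 with an SE of 0.48 (limma adjusted p = 0.257), and Asl was at -0.52 (SE 0.37). The members' median log2 fold change was 0.29, close to the 0.31 of all genes. Whether the change of a member from normal liver to tumour differs between the genotypes was not tested.

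WT tumours against WT non-tumour livers, both from DEN-treated mice, gave 0 of 8 members called by limma against 4.23% of all genes. The same 2 genes had the lowest unadjusted p, and their groups did not overlap: Slc25a13 at 2.4-fold lower (log2 fold change -1.26, SE 0.30, unadjusted p = 0.0044, limma adjusted p = 0.0748) and Otc at 2.34-fold lower (log2 fold change -1.23, SE 0.41, unadjusted p = 0.0196, limma adjusted p = 0.163). That makes 2 of 8 members past an unadjusted p of 0.05, beside 19.9% of all genes, and 2 of 8 with groups apart, beside 24.8%. Without WT tumour 3, Slc25a13 was called (log2 fold change -1.45, limma adjusted p = 0.0393). Otc also differed widely among its controls, since WT non-tumour 3 (115.7 TPM) lay just above WT tumour 1 (111.4 TPM). Asl was at a log2 fold change of -0.32 (SE 0.42), and at 0.14 without WT tumour 3. The median log2 fold change of the members was -0.34, and that of all genes was -0.02.

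In GKO tumours against GKO non-tumour livers, Asl had the largest difference. It was 2.4-fold lower in tumours (log2 fold change -1.26, SE 0.34, limma adjusted p = 0.0548), just short of the threshold, so 0 of 8 members were called against 11.7% of all genes. It was the 1 member with groups apart, beside 38.3% of all genes. The call depended on the scaling: with median centring of the libraries the log2 fold change of Asl was -1.50 (limma adjusted p = 0.0238), with quantile normalization -1.34 (adjusted p = 0.0376), and without GKO tumour 3 -1.59 (adjusted p = 0.0388). Centring also turned the split of all calls from 1092 higher and 560 lower into 777 higher and 990 lower. The median of all genes was 0.20 higher in GKO tumours, and relative to it Asl was at -1.46. Slc25a13 (log2 fold change 0.28, SE 0.40) and Otc (-0.52, SE 0.39) did not pass, and Slc25a13 turned to -0.06 without GKO tumour 3.

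GKO against WT tumours is the comparison the deletion is about. The largest difference was that of Slc25a13, with 82.4 ± 38.7 TPM in GKO tumours against 30.5 ± 7.56 TPM in WT tumours (SD, n = 3 each). Its groups did not overlap and its level was 2.5-fold higher, with a log2 fold change of 1.32 (95% confidence interval 0.41 to 2.23, unadjusted p = 0.0108), which did not pass the adjustment (limma adjusted p = 0.435). Without GKO tumour 3 it was 0.98 (limma adjusted p = 0.775). No member was called, and over all genes 0.0215% were. Slc25a13 was the 1 member past an unadjusted p of 0.05 and the 1 member with groups apart, beside 8.87% and 14.7% of all genes. Otc (log2 fold change 0.49, SE 0.41) and Slc25a15 (-0.52, SE 0.42) overlapped between the genotypes, and the other 5 members lay between -0.11 and 0.40.

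The difference between the genotypes in the tumour against non-tumour change was tested directly, as an interaction over the 12 libraries from DEN-treated mice. For Slc25a13 it was 1.54 on the log2 scale (95% confidence interval 0.39 to 2.7, unadjusted p = 0.0135, limma adjusted p = 0.437; 1.20 without GKO tumour 3), for Asl -0.94 (SE 0.57, unadjusted p = 0.129) and for Otc 0.71 (SE 0.59, unadjusted p = 0.256). None of the 8 members passed the adjustment, and 0.0142% of all genes did. WT tumours enter 3 of the comparisons above and this interaction, so their low Slc25a13 stands behind each of these values, which are not independent of each other.

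**Figure D2:**
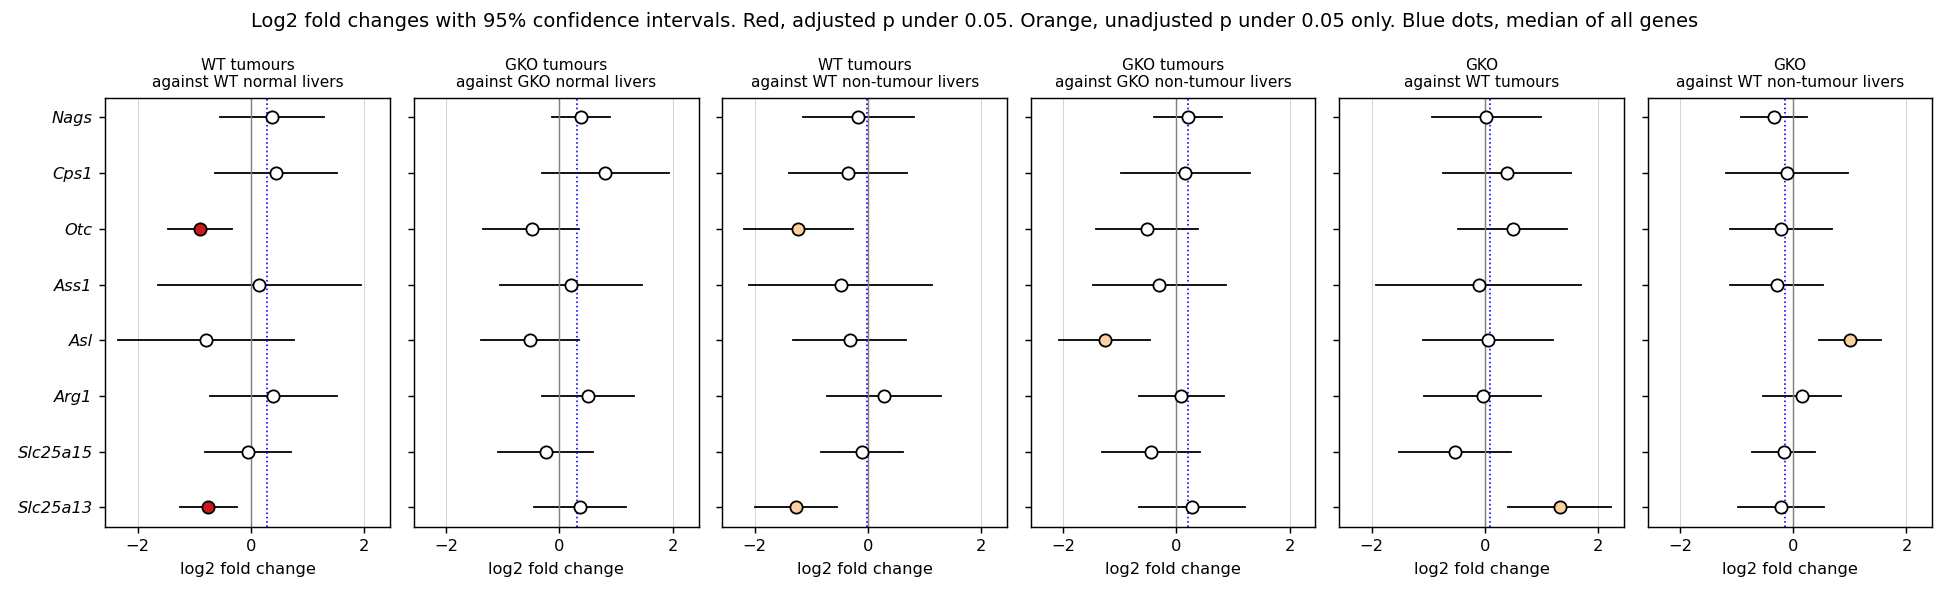
Log2 fold changes of log2(TPM + 1) for the 8 members in 6 comparisons, with 95% confidence intervals from limma, the grey line at 0 and the dotted line at the median of all genes. Otc and Slc25a13 are filled red in WT tumours against WT normal livers (-0.90 and -0.75), and Asl stands to the left in GKO tumours against GKO non-tumours (-1.26) and to the right in GKO against WT non-tumours (1.00).

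Between the genotypes in livers without tumour, Asl had the lowest unadjusted p of the members, in the non-tumours. GKO non-tumours held 386.4 ± 44.2 TPM against 194.2 ± 33.9 TPM in WT non-tumours (SD, n = 3 each), a 2-fold higher level with groups apart (log2 fold change 1.00, SE 0.23, unadjusted p = 0.00359, limma adjusted p = 0.643). No gene at all passed the adjustment in that comparison (0% of all genes by limma, and also none by voom on the recovered reads), and 1 of 8 members against 5.8% of all genes passed at an unadjusted p under 0.05. Asl was also the 1 member with groups apart, beside 13.2% of all genes. In GKO non-tumours against GKO normal livers Asl was at a log2 fold change of 0.74 (SE 0.26, unadjusted p = 0.0228, limma adjusted p = 0.948), also the 1 member with groups apart (8.73% of all genes were), beside 0% of all genes called and 5.2% past the unadjusted threshold. The difference between the genotypes in that change, tested as an interaction added after the data were seen, was 1.21 (SE 0.66, unadjusted p = 0.0899) for Asl, and 0% of all genes were called. GKO and WT normal livers themselves did not differ in any member at an unadjusted p under 0.05, against 3.96% of all genes, and none of either passed the adjustment (0%). Macrophage markers overlapped between the genotypes in the non-tumours. In GKO non-tumours against GKO normal livers 12 of 12 had a log2 fold change above 0 (median 1.12), beside 65% of all genes. In WT non-tumours against WT normal livers 11 of 12 did (median 1.15), beside 79.7% of all genes, and Asl overlapped between those groups. The summed 12 markers were at 1433.0, 289.9 and 560.2 TPM in GKO non-tumours and at 602.4, 317.2 and 922.6 TPM in WT non-tumours. They were at 479.5, 216.0 and 210.1 TPM in GKO normal livers and at 241.1, 164.5 and 275.3 TPM in WT normal livers. In each of these comparisons 0 of 12 were called. Their part in the result was not tested.

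WT non-tumours against WT normal livers gave no call among the members and 0.00744% over all genes. Nags was the 1 member past an unadjusted p of 0.05, 1.45-fold higher with a log2 fold change of 0.54 (SE 0.21, unadjusted p = 0.0354, limma adjusted p = 0.184), beside 24.4% of all genes, and the 1 member with groups apart, beside 33.9%. The median of all genes was 0.33 higher in WT non-tumours, and relative to it Nags was at 0.21. Cps1 was at 0.79 with an SE of 0.50 and overlapping groups.

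The spread within groups set what these comparisons could detect. The SD of log2(TPM + 1) within groups was 0.88 for Ass1, larger than in 95.3% of genes, and 0.71 for Cps1, 0.68 for Asl and 0.54 for Arg1. Otc (0.47), Slc25a15 (0.43), Slc25a13 (0.41) and Nags (0.39) were closer to the median of all genes, 0.34. For Otc the SD of the 6 group means, 0.45, was about as large as the SD within groups, and for Slc25a13, at 0.48, it exceeded it. For Ass1 it was only 0.28. A difference of 2-fold in Ass1 between 2 groups of 3 would thus have been close to the spread between replicates.

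Much of that spread was common to the members. Against the mean of the other 2 libraries of its group, WT normal 3 was higher in 7 of 8 members (median 0.95 on the log2 scale). GKO tumour 3 was higher in 8 of 8 (median 0.94). Of all genes, 54% were higher in WT normal 3 (median 0.03) and 64.5% in GKO tumour 3 (median 0.18). WT tumour 3 was lower in 7 of 8 (median -1.0) and GKO tumour 2 in 8 of 8 (median -1.01). The medians of all genes there were -0.06 and -0.11, with 44.7% and 38.7% of all genes higher. In WT tumour 3, 4 members were at least 2-fold below its group, beside 9.21% of all genes, and in GKO tumour 2 also 4, beside 3.65%. In WT normal 3, 4 members were at least 2-fold above, beside 2.7% of all genes, and in GKO tumour 3 it was 3 members, beside 5.22%. The exceptions were Otc in WT normal 3 and Slc25a13 in WT tumour 3, which went the other way.

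**Figure D3:**
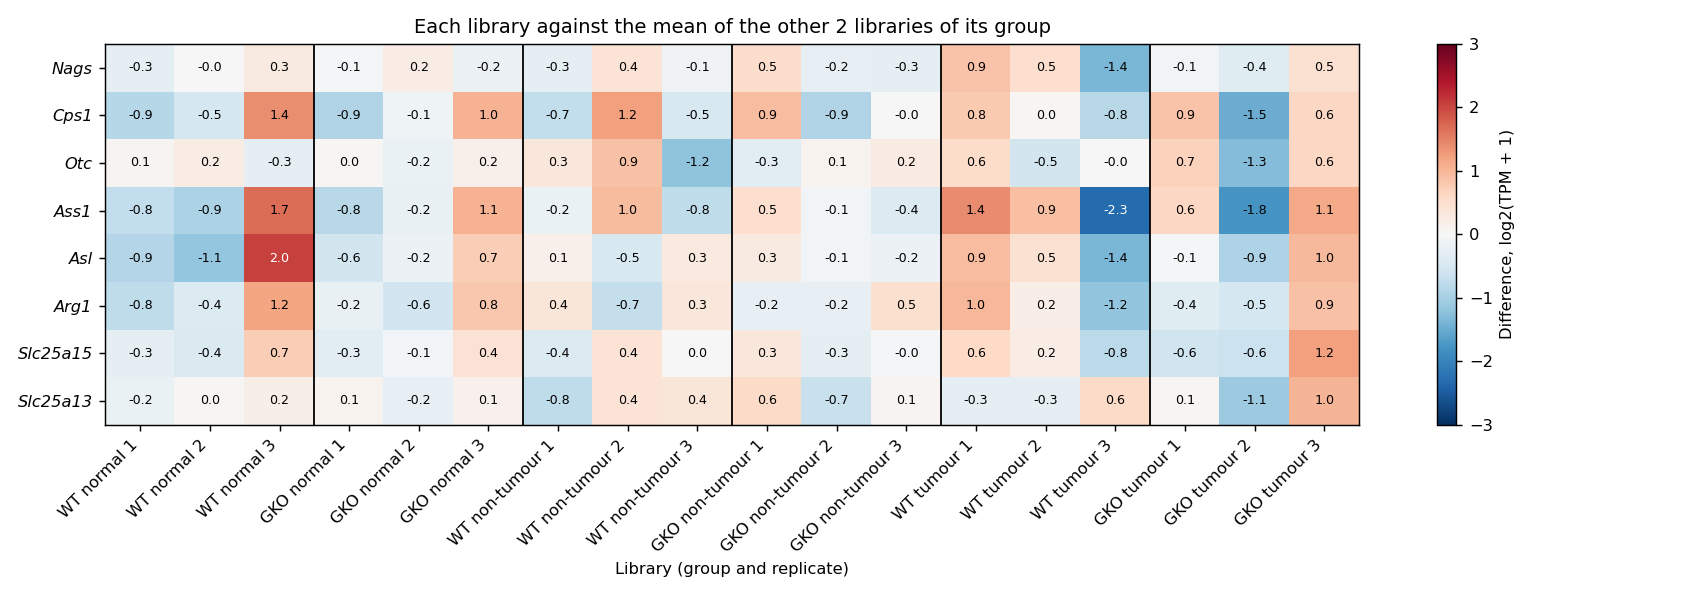
Difference of log2(TPM + 1) between each library and the mean of the other 2 libraries of its group, for 8 members (rows) and 18 libraries (columns), red above and blue below. Columns of 1 colour mark libraries in which nearly all members moved together, with medians of 0.95 in WT normal 3, -1.0 in WT tumour 3, -1.01 in GKO tumour 2 and 0.94 in GKO tumour 3.

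Removing the group means and correlating the members over the 18 libraries gave the same picture in pairs. The highest values were r = 0.88 for Asl with Arg1, the last 2 enzymes of the cycle, 0.86 for Cps1 with Ass1 and 0.84 for Ass1 with Asl. Slc25a15 followed Ass1 at 0.81 and Asl at 0.80. Pairs among Nags, Cps1, Ass1, Asl, Arg1 and Slc25a15 lay between 0.50 and 0.88. Otc and Slc25a13 had mostly lower values, of 0.05 to 0.44 for Otc and 0.11 to 0.53 for Slc25a13. The value of 0.53, for Cps1 with Slc25a13, overlapped the other pairs. Points of 1 library share its depth and composition, so these values are descriptions over n = 18 without a test. Without removing the group means, Cps1 with Ass1 was at 0.82 and Asl with Arg1 at 0.54.

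**Figure D4:**
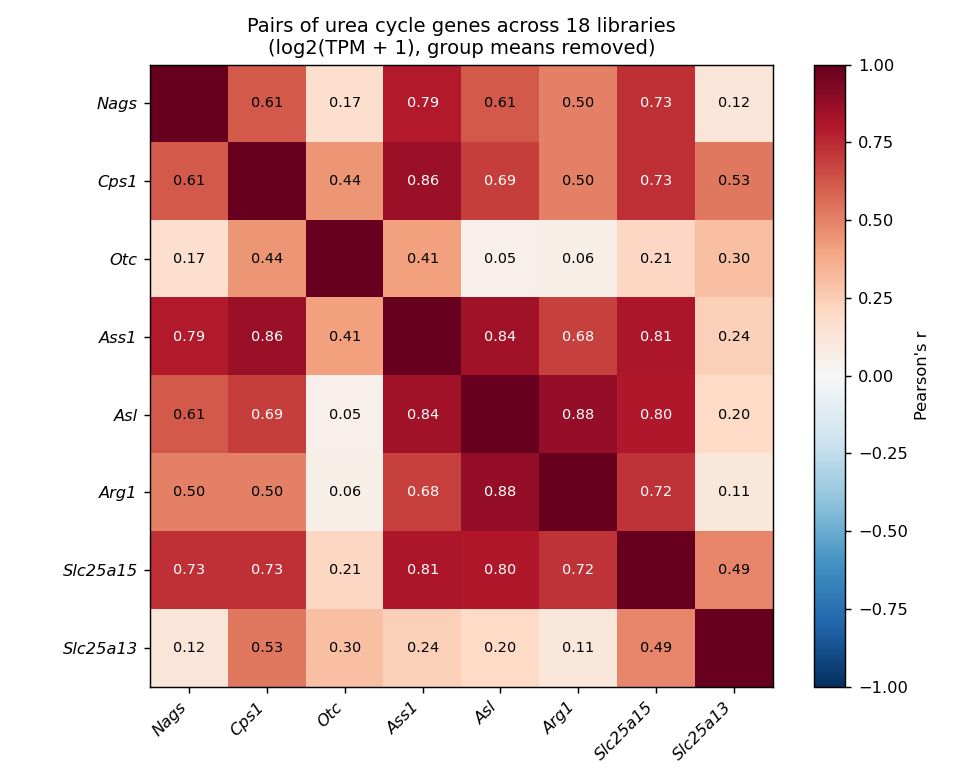
Pearson's r of log2(TPM + 1) for each pair of members over 18 libraries after removing group means. Enzymes from Cps1 to Arg1 and the carrier Slc25a15 form a block with values of up to 0.88, and the rows of Otc and Slc25a13 stay at 0.53 or below.

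Genes whose profile was most like that of the members were found by Pearson's r with the mean of the 8 standardized member profiles, over 18 libraries and 6850 genes averaging 5 TPM or more. They were the Ass1 pseudogene Gm5424 (r = 0.85), the adenosine kinase Adk (0.83), the amino acid transporter Slc38a4 (0.83), the cytochrome P450 Cyp2d22 (0.83) and Ggt6 (0.80). The lowest were Inpp1 (-0.75), Limd1 (-0.66) and Rad51b (-0.62). The likeness of Gm5424 cannot be told apart from reads shared with Ass1.

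The members were read beside hepatocyte genes of the 2 liver zones. Of 8 pericentral genes (Glul, Cyp2e1, Oat, Cyp1a2, Slc1a2, Rhbg, Lgr5 and Axin2), 6 of 7 tested fell in WT tumours against WT normal livers with a median log2 fold change of -4.11, and 6 of 8 fell in GKO tumours against GKO normal livers with a median of -3.46. Against the non-tumours, 4 of 8 fell in WT and 4 of 7 in GKO. The members, which are portal-side genes in healthy liver, had medians of 0.05 and 0.29 in the first 2 comparisons, with 2 and 0 calls. Against the non-tumours the members had medians of -0.34 in WT and -0.10 in GKO, with 0 calls in each. Of 8 other periportal genes, Aldh1b1 and Gls2 rose and Cyp2f2 fell in WT tumours against WT normal livers, and the median was 0.51. In GKO tumours against GKO normal livers Aldh1b1 and Hsd17b13 rose and Cyp2f2 fell, with a median of 0.35. Against the non-tumours, Aldh1b1 rose in WT (median 0.98), and in GKO Aldh1b1 and Hsd17b13 rose and Sds fell (median -0.14). Summed pericentral genes were at 5004.5 to 12043.3 TPM in the 12 livers without tumour and at 32.6 to 1901.8 TPM in the 6 tumours, so the 2 sets of libraries did not overlap.

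**Figure D5:**
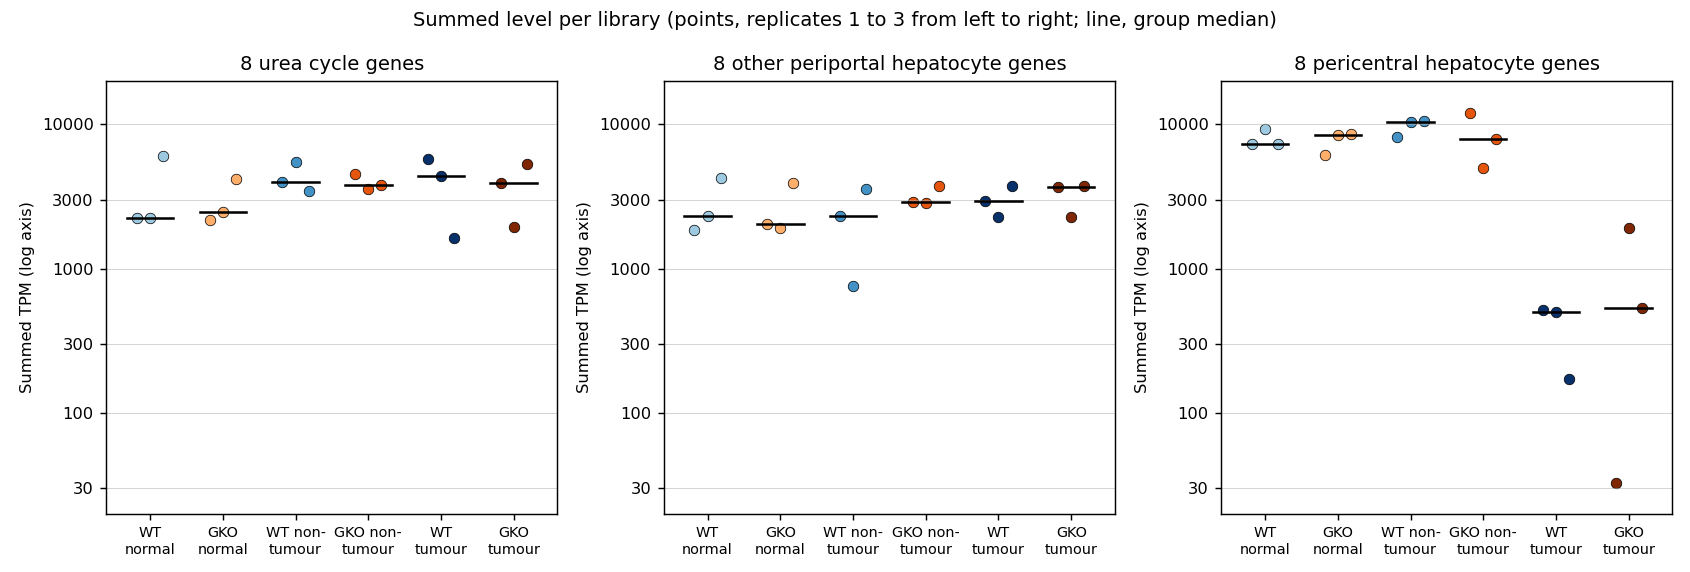
Summed TPM per library on a log axis for the 8 urea cycle genes, 8 other periportal genes and 8 pericentral genes, with a line at each group median. The pericentral sum lies at 32.6 to 1901.8 TPM in tumours and at 5004.5 TPM or more elsewhere, whereas the urea cycle sum overlaps between tumours and livers.

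Several genes that feed or drain the cycle passed the test in tumours, among them Glul and Oat, which are also on the pericentral list, and Gls2, which is also on the periportal list. In WT tumours against WT normal livers, of 11 genes of ammonia supply and capture Gls2, the liver glutaminase, rose (log2 fold change 1.67, limma adjusted p = 0.0476) and Glul fell (-4.11, adjusted p = 0.000843). Of 7 tested genes of ornithine, arginine and citrulline use, Aldh18a1 (2.14), the polyamine enzyme Odc1 (1.71) and the creatine enzyme Gatm (0.85) rose. Oat, which degrades ornithine (-4.56), and Agmat (-0.61) fell. Gatm was near the floor, with means of 0.108 TPM in WT normal livers and 0.989 TPM in WT tumours. Aldh18a1 was also low, with means of 0.223 and 4.75 TPM. Cad (0.69), which makes carbamoyl phosphate for pyrimidines in the cytosol, and Umps (1.21) rose among 3 pyrimidine genes. Of 6 regulators known to act on urea cycle genes only the glucagon receptor Gcgr passed, at -0.60, and none of the 5 tested carriers did. The background in this comparison is the 27.5% of all genes given above.

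Oat shows the size of that difference in single libraries. It was at 1180, 1379 and 1329 TPM in WT normal livers, at 167.0, 93.8 and 9.36 TPM in WT tumours and at 4.54, 135.4 and 22.15 TPM in GKO tumours. The tumours thus lay far below every liver, the lowest of which held 747.6 TPM.

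In GKO tumours against GKO normal livers Odc1 (log2 fold change 1.61) and Aldh18a1 (1.34) rose, Oat fell (-5.28), and of 6 carriers the malate carrier Slc25a11 rose (0.95). None of the ammonia genes, the pyrimidine genes or the regulators passed. In GKO tumours against GKO non-tumours, Aldh18a1 rose (1.39) and Oat fell (-4.98). In WT tumours against WT non-tumours, Glul (-3.44), Agmat (-1.35), the carrier Slc25a10 (-1.28) and Car5a (-2.87) fell. Car5a is the mitochondrial carbonic anhydrase that supplies bicarbonate to Cps1. It was at 67.2, 96.7 and 71.2 TPM in WT non-tumours, at 5.96, 5.55 and 26.0 TPM in WT tumours and at 41.4, 16.7 and 87.5 TPM in GKO tumours, and WT and GKO tumours overlapped. No gene of these lists passed between the genotypes in tumours, non-tumours or normal livers.

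Paralogs of the members were low. Arg2, the mitochondrial arginase, did not exceed 0.512 TPM in any library, and Slc25a2, the second ornithine carrier, did not exceed 1.88 TPM. Slc25a12, the paralog of citrin, was at 2.55, 3.75 and 5.48 TPM in WT tumours, at 5.985, 2.565 and 7.27 TPM in GKO tumours and at 1.545, 1.56 and 2.54 TPM in WT normal livers (log2 fold change 0.75, limma adjusted p = 0.0793). In WT tumours it was thus higher than in every WT normal liver without passing the test, in the direction opposite to Slc25a13, and it remained well below it in TPM.

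Signs of other cell types moved with some of these libraries. The summed 6 markers of dividing cells were at 94.6, 84.5 and 6.12 TPM in WT tumours, at 20.4, 18.2 and 53.3 TPM in GKO tumours and between 1.2 and 3.43 TPM in the livers, except for WT non-tumour 2 with 33.7 TPM. Of these 6 markers 5 rose in WT tumours and 6 in GKO tumours against their normal livers. The summed 8 cholangiocyte markers were at 38.1, 964.0 and 549.1 TPM in GKO tumours and at 22.3 to 92.6 TPM in all other libraries. Spp1 alone made up most of the GKO tumour sums, at 33.95, 934 and 536.2 TPM, with 0 of 5 tested called between the tumours of the genotypes (Krt19 and Krt7 were each at 0 in 1 of 18 libraries). The summed 10 fibroblast and stellate markers were at 119.2, 192.7 and 99.8 TPM in GKO tumours, at 80.8, 98.8 and 54.5 TPM in WT tumours and between 39.9 and 92.6 TPM in the livers, with 0 of 10 called between the tumours of the genotypes. WT tumour 3, with the lowest Nags, Ass1 and Asl, held the fewest dividing-cell transcripts of the 6 tumours, and GKO tumour 2, with the lowest Otc and Slc25a15, held the most cholangiocyte transcripts. Their part in the levels of the members was not tested.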

How the data were processed

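RNA-seq libraries of 18 mouse livers and tumours (6 groups of 3) were analysed from 1 deposited table. Reads were aligned to mm10 with STAR 2.7.3a and counted per gene with featureCounts 2.0.0, and the authors deposited the values as TPM. The gene annotation and the use of strand in counting are not given in the sources used here. TPM was converted to log2(TPM + 1), genes averaging 0.5 TPM or more over the libraries compared were kept, and each comparison was fitted on its own 6 libraries with limma 3.58.1 (R 4.3.3) with a mean-variance trend and Benjamini-Hochberg adjustment over all genes tested, called at an adjusted p under 0.05. The interaction of the tumour change used the 12 libraries from DEN-treated mice, and that of the non-tumour change the 12 without tumour. Fold changes are on the log2(TPM + 1) scale, which slightly understates those of low genes. With 3 against 3 an exact permutation test cannot go below p = 0.1, so no such test was used.

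With GENCODE M21 gene lengths, whole reads were recovered from the TPM: 97.95% to 98.67% of values up to 30 reads came out whole within 0.02. These gave the depth, 11925059 to 20751353 reads, and the counts for voom. Same-numbered GKO and WT tumours deviated together only weakly from their group means (r = 0.101, 0.12 and 0.197), which no label explains. A fit with the replicate number as a block called 0 of 8 members there, as without it. The steps were tested on simulated data. The members and lists were chosen with earlier results of these data known. Named were the 8 members, a fixed set of paralogs and pathway genes, list genes past the threshold, and the 5 most and 3 least similar profiles; some list genes are not reported here. Alternatives covered the pseudocount (0.1), filters, scaling, the fit, blocks and left-out libraries. Sequences are from RefSeq (GRCm38.p6), and 3′ UTRs from GENCODE M21. Python 3.11.15, numpy 2.4.6, pandas 2.3.3 and matplotlib 3.10.9 were used.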

Additional observations from a re-analysis of the deposited data

How the results depend on the processing

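Of the alternatives, voom was chosen after seeing the data. Counts of called members moved in 3 comparisons, by limma unless named otherwise. In WT tumours against WT normal livers the 2 calls, Otc and Slc25a13, became 0 with no filter on low values, with all 18 samples in one fit, with WT tumours 1 and 2 averaged as 1 sample, and with the replicate block (limma adjusted p 0.0728 for Otc and 0.0697 for Slc25a13 under the block), and ranged from 0 to 3 when each library was left out (3 without WT tumour 3, where Nags was called as well). Over all alternatives of this comparison both genes stayed below 0. In WT tumours against WT non-tumours the count of 0 became 2 with all 18 samples in one fit (Otc and Slc25a13) and 1 with voom (Slc25a13), with 0 to 1 when each library was left out. In GKO tumours against GKO non-tumours 0 became 1, Asl, with median centring, quantile normalization, eBayes without a trend and voom, with 0 to 1 when each library was left out. In the other comparisons the count stayed at 0 under every alternative run, the replicate block and voom included. Same-numbered libraries of WT tumours and WT normal livers did not deviate together (r = -0.0746, -0.18 and -0.0577). With 3 libraries a group, these values cannot say whether the numbers pair there. Of the 24 log2 fold changes given for single members, 2 changed sign, both on leaving out 1 library: Asl in WT tumours against WT non-tumours became 0.14 without WT tumour 3 (-0.63 to 0.14 over the libraries left out), and Slc25a13 in GKO tumours against GKO non-tumours became -0.06 without GKO tumour 3 (-0.06 to 0.64). Of the 64 other pairs of a member and a comparison, 42 changed sign under at least 1 alternative, and 1 gained a call: Nags in WT tumours against WT normal livers, without WT tumour 3. Over all genes, the calls ranged under the alternatives from 0 to 147 in GKO against WT tumours (3 as reported), from 163 to 1533 in WT tumours against WT non-tumours (592), from 229 to 2627 in GKO tumours against GKO non-tumours (1652), from 1428 to 5525 in WT tumours against WT normal livers (3750) and from 930 to 3740 in GKO tumours against GKO normal livers (2802). Elsewhere the range was at most 0 to 4, except for the tumour interaction (2 as reported), from 0 to 91. The causes were not tested. The number of libraries, 3 a group, limits the precision.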

Other observations

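Other genes that hepatocytes use for amino acid breakdown and glucose production were looked at in the libraries where the members moved together. The choice of genes followed their values, so no test was made. In WT normal 3, where 7 of 8 members exceeded the other WT normal livers, Sds, serine dehydratase, was at 396.3 TPM against 70.8 and 100.5 TPM in WT normal 1 and 2. Tat, tyrosine aminotransferase, was at 808.8 TPM against 318.7 and 451.2 TPM, and Pck1, the rate-limiting enzyme of gluconeogenesis, at 2484 TPM against 1114 and 1403 TPM. The transporter Slc7a2, which imports arginine, was at 101.8 TPM against 27.0 and 42.0 TPM. GKO normal 3 had the same pattern, with Sds at 266 TPM against 96.3 and 62.7 TPM, Pck1 at 2409 TPM against 1297 and 1097 TPM, and Slc7a2 at 91.1 TPM against 41.3 and 34.1 TPM.

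In WT non-tumour 2, 6 of 8 members were above the mean of the group's other 2 libraries, beside 60.3% of all genes. Asl and Arg1 were below it, as were Sds, Pck1 and Hal. That library held the highest Cps1 (504.3 TPM), Otc (306.8 TPM) and Ass1 (3693.7 TPM) of all 18. In the same library Sds was at 0.723 TPM, against 201.7 and 192.6 TPM in WT non-tumours 1 and 3. Pck1 was at 138.2 TPM against 1026 and 2163 TPM, and Hal, histidine ammonia-lyase, at 18.4 TPM against 129.7 and 109.1 TPM. Asl, at 156.1 TPM, and Arg1, at 631.8 TPM, were the lowest of the WT non-tumours there. In WT tumours 1, 2 and 3, Tat (1785, 1114 and 120.1 TPM) and Got1, a cytosolic aspartate aminotransferase (637.4, 487.5 and 72.1 TPM), had the same order as Ass1 (3249.3, 2569.4 and 580.6 TPM). Among the GKO tumours, 8 of 8 members were lower in GKO tumour 2 and 8 of 8 higher in GKO tumour 3 than in the rest of the group. Sds did not follow them, at 76.9, 83.5 and 68.1 TPM in GKO tumours 1, 2 and 3. Tat was at 918.5, 408.6 and 824.5 TPM there, lowest in GKO tumour 2 as Ass1 was (691.9 TPM). Pck1 was at 120.5, 734.8 and 1155 TPM in the same order of tumours.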
